A study of Homo sapiens with 10 samples.

Results

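Cells of the established castration-resistant prostate cancer line CWR22Rv1 were starved of arginine for 48 h in each of a pair of experiments, and each starved culture was set against the control of its own experiment. These are 4 of the 10 arrays of the series, chosen by their titles. In the time course, -R48h had been in arginine-free medium for 48 h and its control, -R0h, in control medium for 24 h. In the DMKG experiment, named for the membrane-permeable analogue of α-ketoglutarate given to another of its cultures, -R had been in arginine-free medium and its control, +R, in control medium, each for 48 h. Control medium was the arginine-free medium with L-arginine added at 200 mg/L, and all media held dialyzed serum. Each condition has a single array. In the time course, starvation and time in medium cannot be told apart. The other arrays are -R24h of the time course, -R+DMKG with DMKG for 48 h (5 mM by its label, a micromolar dose by the methods), and PC3, another prostate cancer line, with 2 starved and 2 control replicates at 48 h.

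Mammalian cells that run short of an amino acid accumulate uncharged tRNA. The kinase GCN2 then phosphorylates the initiation factor eIF2α, which slows translation in general while the transcription factor ATF4 is still made. This integrated stress response (ISR) turns on genes for amino acid synthesis, import and tRNA charging, and in a prolonged stress also genes that limit growth. Arginine is also read by mTORC1, the kinase complex that holds back autophagy and drives lipid synthesis. Argininosuccinate synthase, ASS1, lets cells rebuild arginine from citrulline.

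The deposited values are on a log2 scale, on which a difference of 1 is a doubling. For each of 17687 genes the starved value minus its own control was taken in each experiment, and the mean of both differences was the 48 h effect of a linear model in limma. A gene was called at an adjusted p (Benjamini-Hochberg over all genes) below 0.05. Both differences were taken to agree in size where they had the same sign and the smaller was at least 0.5 of the larger. The error of the model holds the gap between the experiments and the spread of the PC3 replicates, so a gene whose differences disagree is less easily called.

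Some features of the arrays bear on all that follows. In the DMKG experiment, 3821 genes, 21.6% of all, had exactly the same deposited value in -R and +R, against 8 genes for -R48h and -R0h. The share ran from 35.6% among the lowest 25% of genes by level to 6.76% among the highest 25%, none of these genes was called, and the cause was not tested. The lowest value on the time course arrays was -1, against 1.94 to 2.05 on the arrays of the DMKG experiment. Levels are therefore compared only within an experiment, and those of both experiments given side by side. The markers of luminal prostate cells, 8 measured of 10 written, lay between 5.50 and 14.97 with a median of 11.7. KLK2 and KLK3, with 5.50 to 9.08 and 6.26 to 7.83, overlapped the fibroblast markers. Immune markers, 4 measured of 5, lay between 2.98 and 4.19. Endothelial markers, all 3 measured, lay between 2.39 and 6.45, and fibroblast markers, 5 of 6, between 3.22 and 8.36. The lowest 25% of genes by mean level reached up to 3.69.

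After 48 h without arginine, 566 genes were called higher (3.2% of those tested) and 662 lower (3.74%). Of these, 460 rises (2.6%) and 562 falls (3.18%) agreed in size. Without the model, 177 genes were at least 2-fold higher in both experiments (1%) and 263 at least 2-fold lower in both (1.49%). Of the 523 genes at least 2-fold higher in the time course, 33.8% were so in the DMKG experiment too, which is 24.7% of the 717 genes there. Of the 735 genes at least 2-fold lower in the time course, 35.8% were so in both, which is 41.2% of the 639 genes of the DMKG experiment. A single gene, UBXN11, was at least 2-fold in opposite directions. Opposite signs at any size were more common. Of the genes at least 2-fold in the time course, 62 rises and 58 falls had the opposite sign in the DMKG experiment. Of those at least 2-fold in the DMKG experiment, 99 rises and 47 falls had the opposite sign in the time course. Over all genes, 51.0% had the same sign in both, or 65.1% without those identical in -R and +R. The differences correlated at r = 0.49. Calls came mainly from genes with high levels: the lowest 25% of genes by mean level over the 4 arrays held 2 rises and no fall, and the highest 25% held 285 rises and 324 falls.

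Called rises were mostly larger in the DMKG experiment, in 391 of 566. Called falls were more evenly split, with 365 of 662 larger there. The number of calls rested on that experiment and on the PC3 arrays. Without -R or +R, which leaves the time course alone, 1 rise and 7 falls were called, against 321 rises and 263 falls without -R48h or -R0h. The rise was HMOX1, heme oxygenase 1, and the falls were the histone genes H2BC14, H2BC8, H2AC8 and H2BC26 with CDKN3, HES7 and ARHGEF39. These calls set 1 array against 1, with the error taken from the PC3 replicates, and HMOX1 was not called over both experiments (adjusted p = 0.12). Fitted on the CWR22Rv1 arrays alone, limma called no gene at the adjusted threshold, with 1391 rises and 1490 falls at an unadjusted p below 0.05. Without 1 of the PC3 arrays, 297 to 314 rises and 402 to 411 falls were called.

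**Figure D1:**
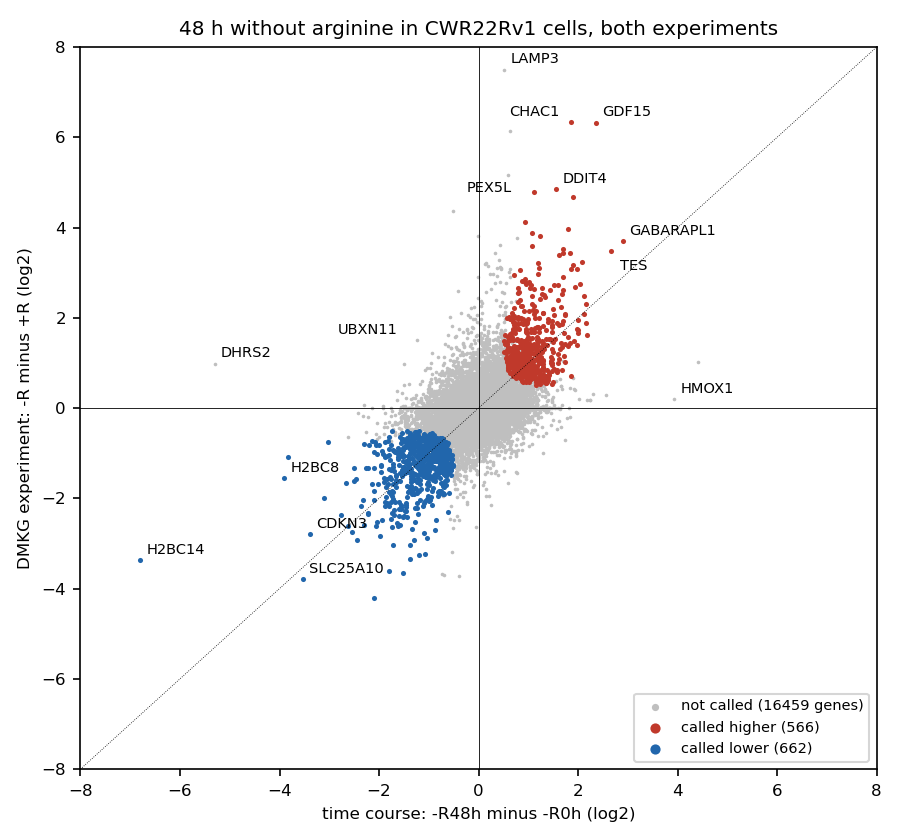
Each point is 1 of 17687 genes, with the log2 difference of the time course (-R48h minus -R0h) on the x axis and of the DMKG experiment (-R minus +R) on the y axis. Red points were called higher (566), blue points lower (662), and the dotted line marks equal differences. CHAC1, GDF15, DDIT4 and PEX5L lie far above the line, H2BC14 far to its left, and LAMP3, DHRS2 and HMOX1 moved in 1 experiment and were not called.

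The largest rises that agreed in size were led by GABARAPL1, TES and RUNDC3B. GABARAPL1, an ATG8-family protein of the autophagosome membrane, had log2 values of 11.28 in -R48h and 8.38 in -R0h, and of 10.03 in -R and 6.34 in +R. The starved array was the higher one in each experiment, by 2.90 and 3.69, for a mean of 3.30 ± 0.26 (SE) or 9.82-fold (limma, adjusted p = 0.0023). TES, a LIM-domain protein of focal adhesions, read 14.40 in -R48h against 11.73 in -R0h, and 15.16 in -R against 11.68 in +R (mean difference 3.07 ± 0.24). TXNIP, which binds thioredoxin and restrains glucose uptake, read 14.49 against 12.60 in the time course and 14.86 against 11.69 in the DMKG experiment. STC2, a secreted glycoprotein and a target of ATF4, read 12.09 against 10.23 and 10.60 against 7.52.

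Several of the 15 largest rises encode transcription factors. The glucocorticoid receptor NR3C1 rose by 1.70 and 2.91, with 8.35 in -R and 5.44 in +R. The Krüppel-like factors KLF10 and KLF5 rose by a mean of 2.30 ± 0.18 and 2.12 ± 0.29, the homeobox gene HOXB9 by 2.31 ± 0.22 and the zinc finger genes ZNF773 and ZNF419 by 2.52 ± 0.26 and 2.16 ± 0.24. KLF10 and TCP11L2 changed most evenly, by 2.11 and 2.49 and by 2.15 and 2.31. ATXN1, the ataxin-1 repressor, rose by 2.16 ± 0.26, the calcium-binding protein S100P by 2.40 ± 0.28, and SH3BGR by 2.63 ± 0.34. HOXB9 read 3.47 in +R, within the range of the lowest 25% of genes, where a lower level may be hard to measure. Adjusted p-values of the 15 rises were at most 0.0086 for KLF5.

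The largest fall that agreed in size was SLC25A10, the mitochondrial dicarboxylate carrier. It read 6.67 in -R48h against 10.20 in -R0h and 5.28 in -R against 9.08 in +R, a mean of -3.66 ± 0.24 or 12.6-fold lower (adjusted p = 0.0023). CDKN3, a phosphatase of cyclin-dependent kinases, read 8.20 against 11.58 and 9.50 against 12.29. CCNB1, cyclin B1, read 7.94 against 10.15 and 10.18 against 12.53. FAM83D, a spindle protein, ranked next after CDKN3, at a mean of -2.69 ± 0.22. In bulk RNA of this kind, fewer dividing cells and less RNA per cell cannot be told apart.

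Among the other genes of the 15 largest falls, the neuropeptide gene NMU fell by 2.64 ± 0.18, the SLIT receptor ROBO1 by 2.45 ± 0.17, the prostaglandin F receptor PTGFR by 2.33 ± 0.19 and the nicotinic receptor subunit CHRNA2 by 2.28 ± 0.19 on the log2 scale. CIDEB, a lipid droplet protein, changed almost alike, by -2.62 in both experiments. HES7, a bHLH repressor, fell by 2.56 ± 0.19, RBM14, an RNA-binding protein of paraspeckles, by 2.56 ± 0.29, and the kallikrein KLK1 by 2.27 ± 0.25. APOH read 3.51 in -R48h and 4.13 in -R, against 5.49 in -R0h and 6.98 in +R. AK5, an adenylate kinase, read 3.52 and 3.32 when starved, against 5.73 and 5.65 in the controls. The starved levels of APOH in -R48h and of AK5 lie within the range of the lowest 25% of genes, where a further fall may be hard to measure. TMT1B, a thiol methyltransferase, fell by 2.38 ± 0.33.

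**Figure D2:**
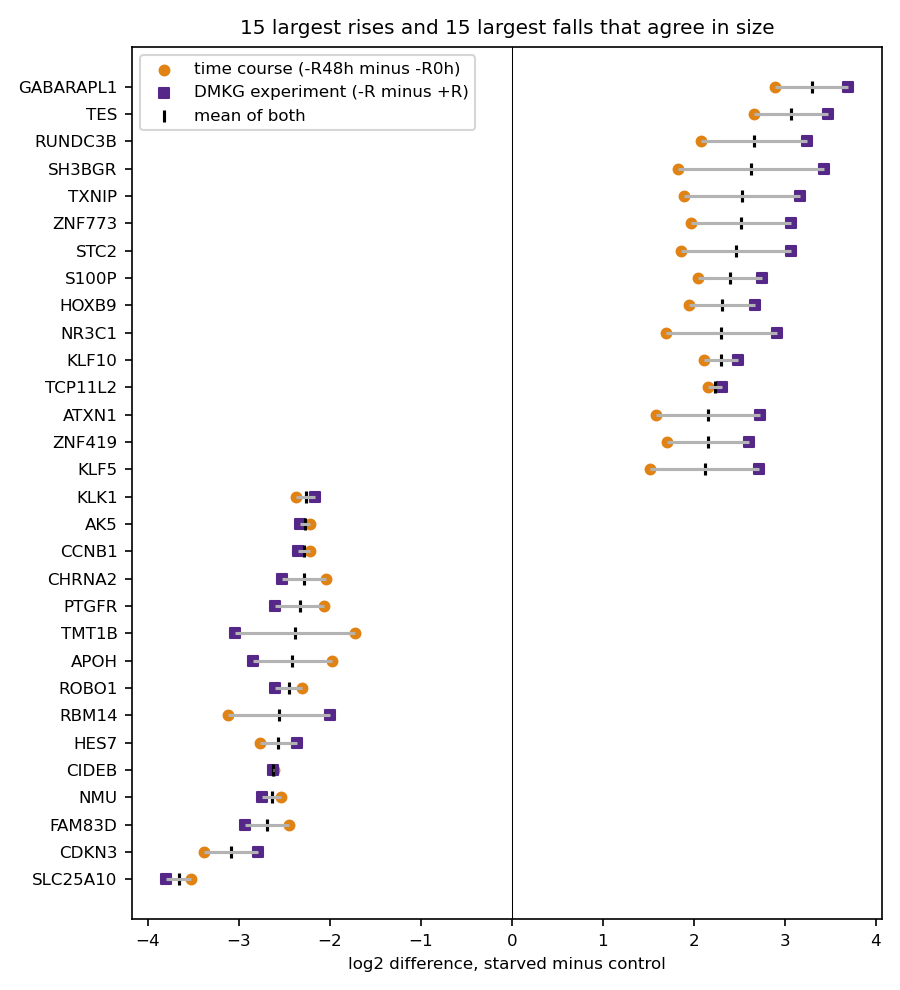
Log2 difference, starved minus control, of the 15 largest rises and 15 largest falls among called genes that agreed in size, with 1 row per gene. Circles give the time course, squares the DMKG experiment and bars the mean of both. GABARAPL1 is at the top with 2.90 and 3.69, SLC25A10 at the bottom with -3.52 and -3.80.

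Of 30 measured targets of ATF4, 13 were called higher (43.3%, against 3.2% of all genes) and none lower. At an unadjusted p below 0.05, 22 were higher and 1 lower. Both differences were positive for 23 of these targets. Their median difference was 0.60 in the time course and 2.03 in the DMKG experiment (mean of both 1.37, against 0.02 for all genes). The members with the smallest p were STC2, CDKN1A and PHGDH. CDKN1A, the p21 inhibitor of cell cycle kinases, changed evenly, by 1.71 and 1.66. PHGDH, which opens serine synthesis, rose by 1.27 and 2.67. Of the 13 ISR factors measured, 4 were called higher (30.8%) and 1 lower (7.69%), against 3.2% and 3.74% of all genes. ATF3, a transcription factor downstream of ATF4, read 10.83 in -R48h against 9.14 in -R0h and 10.71 in -R against 7.28 in +R. PPP1R15A, which brings a phosphatase to eIF2α, rose by 1.35 and 1.52, NUPR1 by 0.92 and 1.33, and JDP2 by 0.71 and 2.95. EIF2AK1, the heme-sensing eIF2α kinase, fell by 0.83 ± 0.18 on the log2 scale.

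The size of the rise differed widely between the experiments for some ISR genes. CHAC1, which degrades glutathione, read 14.34 in -R48h and 12.48 in -R0h, and 12.90 in -R and 6.56 in +R. GDF15, a stress-induced cytokine, read 15.65 against 13.28 in the time course and 13.93 against 7.61 in the DMKG experiment. DDIT4, an inhibitor of mTORC1, read 14.07 against 12.51 and 13.18 against 8.33. These genes and PEX5L (1.11 and 4.78) had the largest gaps between differences among called rises. The median of the ATF4 targets was 13.70 in -R48h and 12.82 in -R0h, and 13.54 in -R and 10.89 in +R. The controls also differed in time in medium, 24 h for -R0h and 48 h for +R, which cannot be told apart from the experiment.

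**Figure D3:**
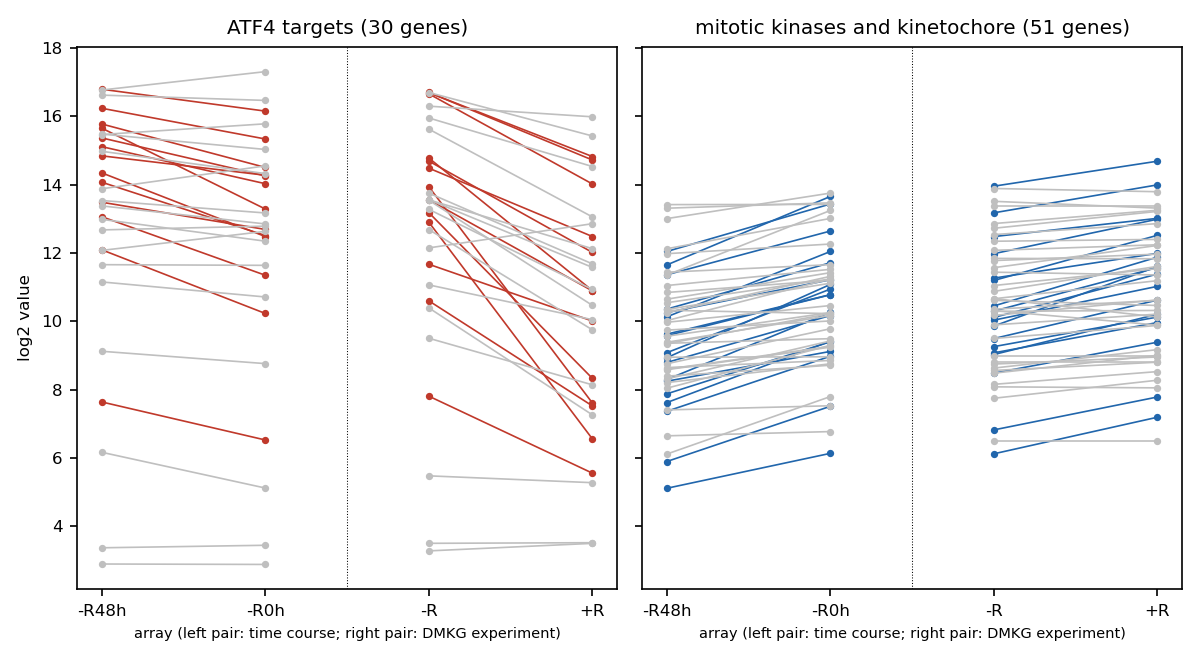
Log2 values of the 30 ATF4 targets (left) and of 51 genes of mitotic kinases and the kinetochore (right) on the 4 arrays, with each starved array left of its control and a line per gene within each experiment. Red lines were called higher, blue lines lower and grey lines neither. The median of the ATF4 targets is 13.70 in -R48h and 12.82 in -R0h, and 13.54 in -R and 10.89 in +R.

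The ISR acts at the C/EBP-ATF response element, TGATGNAA, and promoters of 3 genes of this response are shown because they hold it. Each stretch is the 250 bases before the annotated start (RefSeq, GRCh38.p14), read 5′ to 3′ on the strand of the gene, with the element on either strand in capitals. A single annotated start per gene was used. Other starts of a gene, where it has them, were not looked at, so the start shown need not be the one in use in these cells. ATF3 and CHAC1 fall under the rules for named genes, and ASNS, asparagine synthetase, was chosen after its values were seen (15.36 in -R48h against 14.25 in -R0h, 16.65 in -R against 14.01 in +R).
CHAC1, chr15:40953221-40953470, plus strand: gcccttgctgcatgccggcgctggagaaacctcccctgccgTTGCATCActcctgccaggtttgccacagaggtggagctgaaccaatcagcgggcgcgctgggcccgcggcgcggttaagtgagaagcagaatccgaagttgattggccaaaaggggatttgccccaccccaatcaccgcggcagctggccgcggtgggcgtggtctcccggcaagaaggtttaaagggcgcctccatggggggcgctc
ATF3, chr1:212565157-212565406, plus strand: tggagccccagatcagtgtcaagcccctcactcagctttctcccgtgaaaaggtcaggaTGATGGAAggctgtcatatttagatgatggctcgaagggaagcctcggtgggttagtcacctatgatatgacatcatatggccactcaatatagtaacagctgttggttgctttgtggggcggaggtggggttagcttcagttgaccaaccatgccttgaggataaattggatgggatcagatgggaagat
ASNS, chr7:97872409-97872658, minus strand: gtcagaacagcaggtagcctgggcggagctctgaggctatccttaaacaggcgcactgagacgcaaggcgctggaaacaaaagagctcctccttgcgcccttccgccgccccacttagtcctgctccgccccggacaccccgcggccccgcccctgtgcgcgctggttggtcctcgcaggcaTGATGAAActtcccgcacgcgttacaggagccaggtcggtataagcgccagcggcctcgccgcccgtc

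The element begins 209 bases before the start in CHAC1, on the opposite strand, 191 bases before it in ATF3 and 68 bases before it in ASNS. In the 300 bases from 250 before to 50 after the start, it was present in 2.52% of the 14250 genes with a promoter sequence. It was present in 10 of 148 genes at least 2-fold higher in both experiments and in 1 of 200 at least 2-fold lower in both. It was found in 5 of 23 ATF4 targets and 5 of 14 cytosolic tRNA synthetases. A match is a description of the letters, not of binding.

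Of 16 cytosolic tRNA synthetases, which charge tRNA with amino acids, 5 were called higher (31.25%, against 3.2% of all genes) and none lower (10 and 0 unadjusted). Those called were CARS1, SARS1, WARS1, YARS1 and LARS1. SARS1 read 14.11 in -R48h against 13.15 in -R0h and 13.98 in -R against 11.23 in +R. CARS1 rose by a mean of 1.09 ± 0.21 and LARS1 by 0.80 ± 0.17. The median of the list was 0.32 in the time course and 0.89 in the DMKG experiment. Of 25 amino acid transporters, 2 were called higher (8%) and 1 lower (4%), against 3.2% and 3.74% of all genes (8 and 1 unadjusted). Their median was 0.18, and 9 were positive in both experiments. SLC7A1, the main importer of arginine, read 14.84 against 14.27 and 14.48 against 12.48 (mean difference 1.28 ± 0.31, adjusted p = 0.048). SLC7A11, the cystine importer, rose by 1.08 and 3.88, and SLC7A8 fell by 1.47 ± 0.34 on the log2 scale.

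In arginine and polyamine metabolism, 24 genes, 2 were called higher and 2 lower, 8.33% each, against 3.2% and 3.74% of all genes. ASS1 read 8.38 in -R48h against 7.10 in -R0h and 7.02 in -R against 5.73 in +R, nearly the same rise of 1.27 and 1.29 (mean 1.28 ± 0.25, adjusted p = 0.025). SAT1, which acetylates spermidine and spermine for export, rose by 0.70 and 2.22. SRM, spermidine synthase, fell by 0.74 and 0.87, and AGMAT, agmatinase, by 1.01 and 1.42, down to 3.56 in both starved arrays. That level lies within the range of the lowest 25% of genes, where a further fall may be hard to measure. Of 25 genes of arginine sensing and mTORC1 control, DDIT4, RRAGC and FNIP1 were called higher and none lower. The share called higher was 12%, against 3.2% of all genes, with a median of 0.16 and 6 higher and 3 lower unadjusted. RRAGC, a Rag GTPase that brings mTORC1 to the lysosome, rose by 0.93 and 1.02.

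Autophagy genes rose in part. Of 44 measured, 7 were called higher (15.9%, against 3.2% of all genes) and none lower (13 and 2 unadjusted), with a median of 0.15. Beside GABARAPL1 these included the cargo receptors SQSTM1 (13.11 in -R48h against 11.45 in -R0h, 12.93 in -R against 10.68 in +R) and CALCOCO2 (13.41 against 12.26 and 13.07 against 11.69). In the lysosome list, 2 of 39 genes were called higher and 3 lower. MITF, a factor for lysosomal genes, rose by 1.06 and 1.24, and the hydrolases GLA, CTSA and CTSC fell. These shares were 5.13% and 7.69%, against 3.2% and 3.74% of all genes.

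FOXO transcription factors are active when insulin and growth factor signals are low. Of 20 of their targets, 8 were called higher (40%) and 1 lower (5%), against 3.2% and 3.74% of all genes. FBXO32, a ubiquitin ligase of muscle atrophy, read 8.21 in -R48h against 6.05 in -R0h and 6.29 in -R against 4.41 in +R. CAT, catalase, went the other way, at 8.68 against 10.35 and 9.39 against 10.98. In the TXNIP and ARRDC family, 9 genes, 2 were called higher (22.2%, against 3.2% of all genes) and none lower. ARRDC4, a paralogue of TXNIP, rose by 1.47 and 1.93. The family's median was 0.02 in the time course and 0.17 in the DMKG experiment. The median of the FOXO targets was 0.37 in the time course and 1.39 in the DMKG experiment.

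Of 26 targets of p53, 9 were called higher (34.6%, against 3.2% of all genes) and none lower (16 and 1 unadjusted). Both differences were positive for 20 of these targets. Their medians were close, at 0.76 in the time course and 0.62 in the DMKG experiment. EDA2R, a receptor of the TNF receptor family, read 11.44 against 10.00 and 11.40 against 8.79, and GADD45A rose by 1.08 and 2.31. GDF15 and CDKN1A stand on this list and among the ATF4 targets, and GADD45A also among the FOXO targets. In the BCL2 family, of 15 measured genes, BMF and BAX were called higher (13.3%, against 3.2% of all genes) and none lower. BMF, a BH3-only activator of apoptosis, read 8.69 in -R48h against 6.57 in -R0h and 7.07 in -R against 4.98 in +R (mean difference 2.11 ± 0.19). Of 24 immediate early genes, 7 were called higher (29.2%, against 3.2% of all genes) and none lower (13 and 0 unadjusted). KLF10, KLF6 and DUSP1, a phosphatase of MAP kinases, had the smallest p. DUSP1 read 11.48 against 9.68 and 11.61 against 7.64.

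**Figure D4:**
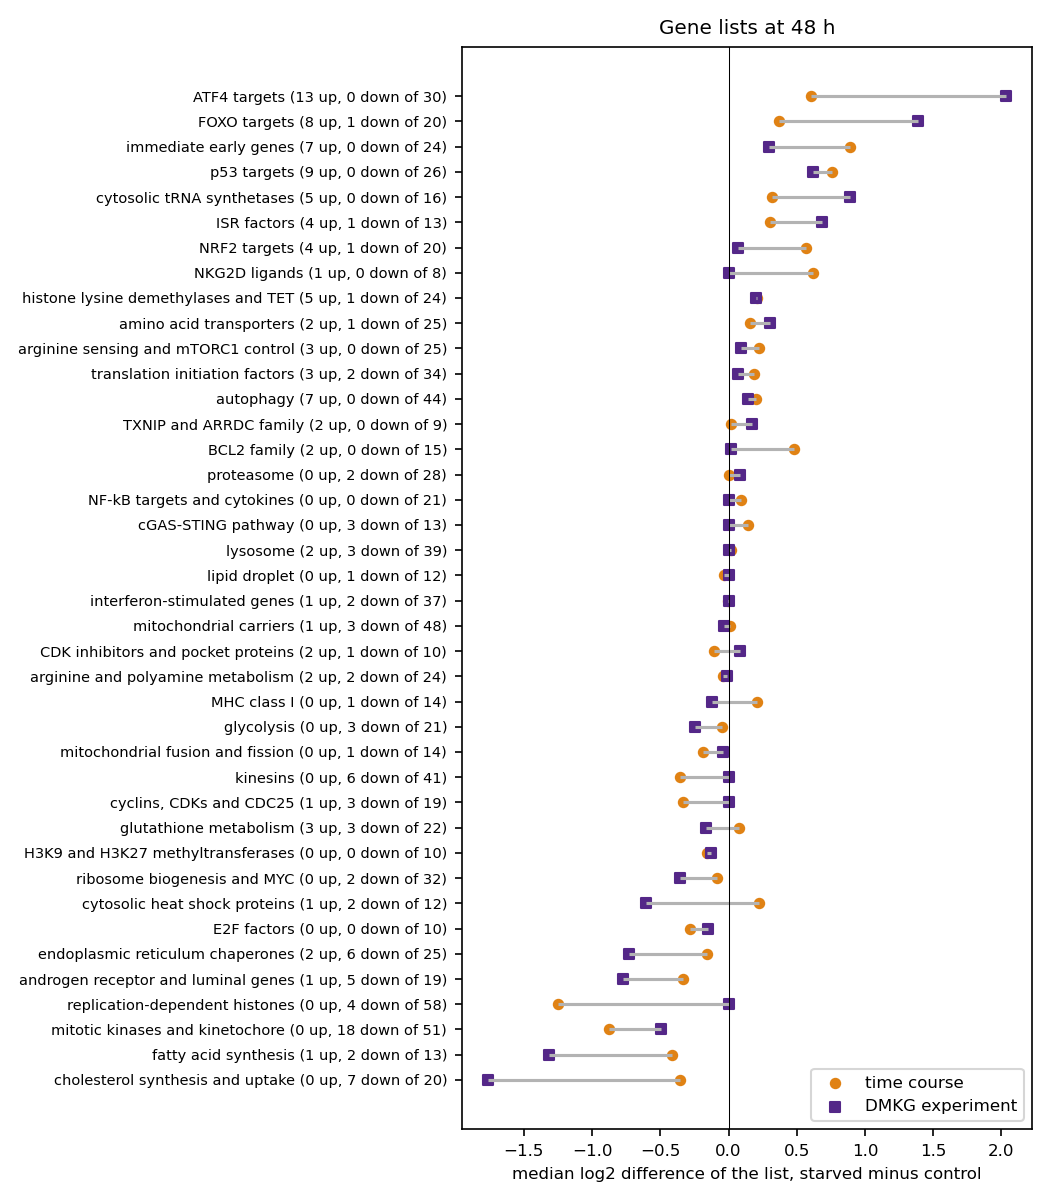
Median log2 difference, starved minus control, of each of 40 gene lists in the time course (circles) and the DMKG experiment (squares), with the members called higher and lower of those measured beside each name. The ATF4 targets are highest (0.60 and 2.03) and the cholesterol genes lowest (-0.36 and -1.76).

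Of 20 genes of cholesterol synthesis and uptake, 7 were called lower (35%, against 3.74% of all genes) and none higher (13 and 0 unadjusted). The median was -0.36 in the time course and -1.76 in the DMKG experiment. CYP51A1, which demethylates lanosterol, read 11.46 in -R48h against 12.80 in -R0h and 12.12 in -R against 13.95 in +R. EBP, a sterol isomerase, fell by 1.17 and 1.39, and FDPS, which makes farnesyl diphosphate, by 1.27 and 2.53. In fatty acid synthesis, 13 genes, FASN and ACLY were called lower, by 1.32 ± 0.26 and 1.22 ± 0.24 on the log2 scale. ACSL1, which activates long-chain fatty acids, was called higher by 2.16 ± 0.41. The shares of this list were 7.69% higher and 15.4% lower, against 3.2% and 3.74% of all genes.

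Of 51 genes of mitotic kinases and the kinetochore, 18 were called lower (35.3%, against 3.74% of all genes) and none higher (31 and 0 unadjusted). Both differences were negative for 39 of them. The median was -0.88 in the time course and -0.49 in the DMKG experiment. DLGAP5, a spindle protein, read 9.08 in -R48h against 10.94 in -R0h and 9.86 in -R against 11.60 in +R. TPX2, an activator of Aurora A, read 8.30 against 10.26 and 10.11 against 11.38. CENPE, a kinetochore motor, fell by 1.52 and 1.18. Of 41 kinesins, 6 were called lower (14.6%, against 3.74% of all genes), among them KIF14, KIF23 and KIF12. Of 19 cyclins, cyclin-dependent kinases and CDC25 phosphatases, CCNB1, CCNF and CCNA2 were called lower and CDK6 higher, by 0.80 ± 0.19. The shares were 15.8% lower and 5.26% higher, against 3.74% and 3.2% of all genes. The list's median was -0.34 in the time course and 0 in the DMKG experiment. None of 10 E2F factors was called by limma, although 2 were lower and 0 higher unadjusted.

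Promoters of genes that peak in mitosis commonly pair a CCAAT box with the cell cycle homology region, TTTGAA. A pair of the genes above is shown because both motifs lie in their promoters, with the motifs on either strand in capitals, in the same form as before.
DLGAP5, chr14:55191586-55191835, minus strand: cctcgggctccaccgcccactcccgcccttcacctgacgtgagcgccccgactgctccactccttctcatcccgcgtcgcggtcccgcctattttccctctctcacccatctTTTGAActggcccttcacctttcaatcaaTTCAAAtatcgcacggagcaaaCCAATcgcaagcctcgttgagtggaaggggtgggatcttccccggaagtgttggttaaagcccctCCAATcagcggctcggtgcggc
KIF23, chr15:69414099-69414348, plus strand: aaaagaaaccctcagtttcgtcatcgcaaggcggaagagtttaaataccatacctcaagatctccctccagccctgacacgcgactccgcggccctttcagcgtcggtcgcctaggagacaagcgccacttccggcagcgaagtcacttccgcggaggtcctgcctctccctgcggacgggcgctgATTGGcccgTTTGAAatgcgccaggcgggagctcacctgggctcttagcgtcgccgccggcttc

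Both motifs together were present in 4.97% of all promoters. They were present in 20 of 42 promoters of the mitotic list, 9 of 33 of the kinesins, 24 of 200 of the genes at least 2-fold lower in both experiments and 7 of 148 of those at least 2-fold higher in both. In DLGAP5 a CCAAT box begins 22 bases before the start and another 87 bases before it. In KIF23 the box lies on the opposite strand and begins 64 bases before the start, with the TTTGAA at 55 bases.

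Histone genes differed between the experiments. Of 58 replication-dependent histone genes, 4 were called lower (6.90%, against 3.74% of all genes) and none higher (24 and 0 unadjusted). The median was -1.25 in the time course and 0 in the DMKG experiment, where 6 of these genes had identical values in -R and +R. A negative difference in both experiments was seen for 26 of them, and a positive one in both for none. H2BC14 read 7.95 in -R48h against 14.75 in -R0h and 10.34 in -R against 13.72 in +R, a mean of -5.08 ± 0.64 or 33.9-fold lower (adjusted p = 0.0062). It was the only called fall among the 5 called genes with the largest gap between like-signed differences. H2BC8 read 8.23 against 12.14 and 10.19 against 11.75, H2AC8 11.03 against 14.86 and 13.07 against 14.15, and H2BC6 8.67 against 10.88 and 7.35 against 8.16. These histone genes are near-identical copies in part, so that a probe set may read more than its own gene.

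**Figure D5:**
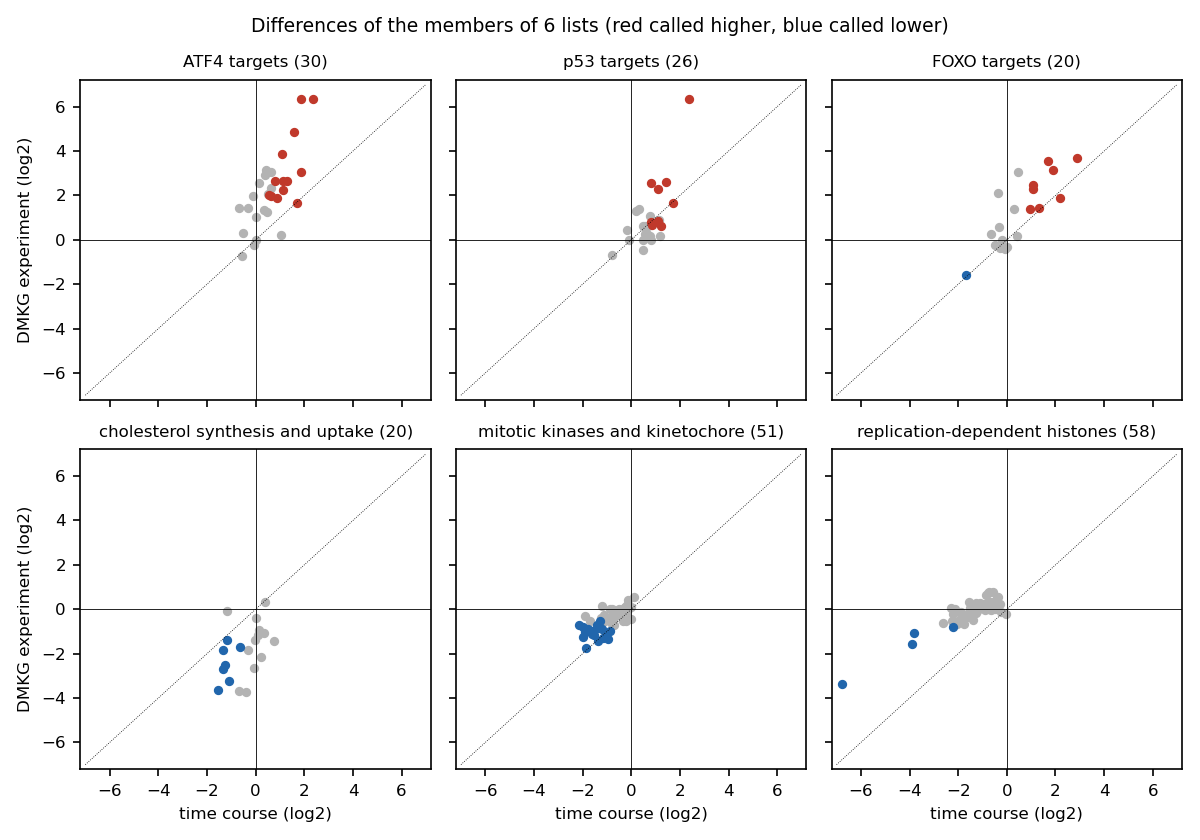
Log2 differences, starved minus control, of the members of 6 lists, with the time course on the x axis and the DMKG experiment on the y axis. Red points were called higher, blue points lower, and the dotted line marks equal differences. The median of the ATF4 targets is 0.60 on the x axis and 2.03 on the y axis, that of the cholesterol genes -0.36 and -1.76, and that of the histone genes -1.25 and 0.

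Chaperones of the endoplasmic reticulum split. Of 25, 6 were called lower (24%) and 2 higher (8%), against 3.74% and 3.2% of all genes. The median was -0.16 in the time course and -0.73 in the DMKG experiment. MANF, a secreted folding factor, read 8.36 in -R48h against 9.44 in -R0h and 8.59 in -R against 10.65 in +R, and DNAJB11, a co-chaperone of BiP, fell by 0.90 and 1.30. XBP1, the transcription factor of the unfolded protein response, was called higher, by 0.96 and 1.87, as was HERPUD1. Of 19 androgen receptor targets and luminal genes, 5 were called lower (26.3%) and 1 higher (5.26%), against 3.74% and 3.2% of all genes. STEAP1, a membrane protein of prostate cells, read 9.99 against 11.42 and 12.37 against 14.24. The kallikrein KLK4 fell by 1.20 and 0.96, and HOXB13, a prostate homeobox factor, by 1.12 and 2.17. KRT18, a luminal keratin, was the member called higher, by 0.81 and 0.99.

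In the mitochondrial carrier list, 48 genes, SLC25A10, SLC25A23 and SLC25A1 were called lower and SLC25A20, the carnitine carrier, higher. SLC25A23 fell by 1.39 and 1.24, and SLC25A1, the citrate carrier, by 0.96 and 0.80. The shares were 2.08% higher and 6.25% lower, against 3.2% and 3.74% of all genes, with 7 higher and 10 lower unadjusted. Of 21 glycolytic genes, PGK1, PGAM1 and PFKL were called lower, PGK1 by 1.01 ± 0.19 and PGAM1 by 0.87 ± 0.19 on the log2 scale, and none higher. Called falls were 14.3% of the glycolytic list, against 3.74% of all genes. Of 28 proteasome genes, the core subunits PSMA1 and PSMA2 were called lower, PSMA1 by 1.28 and 1.26. That is 7.14% of the list, against 3.74% of all genes, with 8 higher and 10 lower unadjusted.

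A large change in a single experiment was more common in the DMKG experiment. There, 20 genes were at least 8-fold higher and 4 at least 8-fold lower while they changed by less than 2-fold in the time course, against 1 and 2 genes the other way round. These examples were chosen after their values were seen. LAMP3, a lysosomal membrane protein, read 12.11 in -R48h and 11.59 in -R0h, and 11.46 in -R and 3.96 in +R. SESN2, a leucine sensor, read 11.15 against 10.71 and 10.39 against 7.26. The metallothionein genes MT1G, MT1X, MT1E and MT1F differed by 0.13, 0.18, 0.41 and 0.45 between -R48h and -R0h and by 3.18, 3.16, 3.28 and 3.11 between -R and +R. The 4 genes at least 8-fold lower were INSIG1, HMGCS1, SREBF1 and SCD, none of which was called over both experiments (adjusted p 0.051 to 0.090). INSIG1, a regulator of sterol synthesis, read 5.88 against 6.28 and 6.12 against 9.85. In the time course, HMOX1 read 9.71 in -R48h against 5.77 in -R0h, with 3.41 in -R against 3.21 in +R, and DHRS2 read 6.34 against 11.65, with 8.92 against 7.94.

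The change of CWR22Rv1 cells differed from that of PC3 cells, by a contrast of the same model, for 778 genes (4.4%). Of the 30 genes with the largest changes that agreed in size, 12 passed it, 2 rises and 10 falls. These genes were chosen by their change in CWR22Rv1 cells, so their count was not read against that share. GABARAPL1 differed by -0.11 ± 0.37 (SE) and SLC25A10 by 0.81 ± 0.34 between the lines (adjusted p = 0.91 and 0.23), which does not show that the lines respond alike. CDKN3, CCNB1 and FAM83D fell in both lines and by more in PC3, where the difference was -4.72, -4.36 and -4.80.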

How the data were processed

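RNA of 10 samples was hybridized to Affymetrix Clariom S human arrays. The authors made the deposited log2 values with the Transcriptome Analysis Console (version and normalization: not given in the sources used here). Of 24351 probe sets, 17709 carry a single gene symbol in the platform annotation. For 20 symbols with several, the probe set with the highest mean was kept. The model was fitted in limma 3.58.1 under R 4.3.3 over all 10 arrays, with 1 intercept per CWR22Rv1 experiment and 1 for PC3, and effects of 24 h, 48 h, DMKG and PC3 starvation. It had 3 residual degrees of freedom and a prior of 5.09. With 1 array per CWR22Rv1 condition, p-values reflect the spread among the arrays at hand, and the number of arrays limits the precision. Nothing says that PC3 replicates came from separate cultures.

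Genes were picked by rule as the 15 largest rises and 15 largest falls among called genes that agree in size. The rules also took the 3 members of each of 40 lists with the smallest p. Genes at least 2-fold in opposite directions were added, with the 5 called genes with the largest gap between like-signed differences. Not all of the list members are named in the text. Those not called were left out. Some lists are not described, among them translation initiation factors, cytosolic heat shock proteins, ribosome biogenesis, and mitochondrial fusion and fission. Other names were chosen after their values were seen. The arrays, lists and motifs were chosen with earlier results of these data known. Scripts were checked on simulated data, and promoters come from RefSeq.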

Additional observations from a re-analysis of the deposited data

Results flagged for a closer look

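UBXN11, a UBX-domain protein, was the single gene at least 2-fold in opposite directions, at -1.24 in the time course (7.66 in -R48h against 8.90 in -R0h) and 1.51 in the DMKG experiment (7.56 in -R against 6.05 in +R). The difference between the experiments was not tested.

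Of the 30 genes with the largest changes that agreed in size, 12 were picked out. Their response differed between the cell lines (limma contrast, adjusted p below 0.05). The falls of PTGFR, CIDEB, APOH, CHRNA2, ROBO1, HES7 and KLK1 gave differences, CWR22Rv1 minus PC3, of -5.05, -2.61, -2.55, -2.51, -2.49, -2.40 and -2.35. PTGFR fell in CWR22Rv1 cells and rose in PC3 cells, by 2.72 ± 0.19 (SE), with 9.42 and 9.50 in the starved against 6.77 and 6.71 in the control arrays. ROBO1 read 9.44 and 9.47 in starved PC3 cells against 9.40 and 9.43 in control PC3 cells. APOH, CHRNA2 and KLK1 lay between 2.53 and 3.31 on all 4 PC3 arrays, which leaves little room to measure a fall. HES7, at 4.13 to 4.41, and CIDEB, at 5.45 to 6.18, lay below the median gene of these arrays (6.80 to 6.87). Low levels may also limit the fall that these genes could show in PC3 cells. RUNDC3B rose in CWR22Rv1 cells and fell by 1.42 ± 0.30 in PC3 cells, a difference of 4.08. TXNIP rose more in PC3 cells, by 4.45, a difference of -1.92. CDKN3, CCNB1 and FAM83D fell less in CWR22Rv1 than in PC3 cells, with differences of 1.64, 2.08 and 2.11.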

How the results depend on the processing

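Of 24 settings, those with no effect on the counts beyond 1.5 times were the lowest 30% of genes left out, the mean of all probe sets, -R24h or -R+DMKG left out, both of these left out, and genes with identical -R and +R values left out, a setting chosen after seeing the data. Quantile normalization and median centring each gave 2 genes at least 2-fold in opposite directions, against 1, and moved no other count by over 1.5 times. On CWR22Rv1 arrays only, and with no term for the experiment, limma called 0 rises and 0 falls. The unadjusted p was below 0.05 for 1391 rises and 1490 falls on CWR22Rv1 arrays only, and for 728 rises and 763 falls with no term for the experiment. That setting also called 0 genes in the contrast with PC3, with 1310 at an unadjusted p below 0.05. The trend and robust variant called 913 rises, 997 falls and 1287 genes in the contrast.

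With the PC3 replicate numbers as a replicate block, 311 rises and 397 falls were called, 281 and 371 agreed in size, and the contrast called 500. These numbers mark no stated pairing, and deviations of same-numbered arrays correlated at -0.03. Leaving out each array in turn gave 1 to 566 rises, 7 to 662 falls and 124 to 778 genes in the contrast. Agreement in size needs -R48h, -R0h, -R and +R, and leaving out each of the other 6 arrays gave 269 to 460 rises and 379 to 562 falls that agreed. UBXN11 turned to -1.24 without -R or +R, against a mean of 0.14.

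A mean of at least 2-fold left 319 rises and 430 falls, of which 237 and 354 agreed in size. With the smaller difference at least 0.75 of the larger, 243 rises and 307 falls agreed. The methods' t-test on 2 starved and 2 control arrays gave 337 rises and 327 falls unadjusted, and 0 and 0 after adjustment. The naming rules gave 121 genes that were called or, for UBXN11, went in opposite directions, and some are not named in the text. Of these 121 genes, 116 lost the call without -R or +R, 38 without -R48h or -R0h and 23 to 28 without a PC3 array. The call was lost by 25 with the replicate block, 5 with trend and robust, and 1 with median centring. It was lost by 120 on CWR22Rv1 arrays only or with no term for the experiment. Of 120 recomputed list medians, 111 moved by no more than the standard deviation of the list's medians in the time course and the DMKG experiment. This yardstick is wide where the experiments differ, so it says little about such lists. The causes were not tested.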

Other observations

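Of 24 histone lysine demethylases and TET enzymes, most of which use α-ketoglutarate, 5 demethylases were called higher and KDM1B, a flavin-dependent demethylase, lower. The shares called were 20.8% and 4.17%, against 3.2% and 3.74% of all genes. KDM5B read 10.85 in -R48h against 9.17 in -R0h and 9.05 in -R against 8.20 in +R. KDM3A rose by 0.86 and 0.88, KDM4A by 1.01 and 0.75, JMJD1C by 0.86 and 2.27, and KDM7A by 0.79 and 2.02. None of 10 methyltransferases of H3K9 and H3K27 was called by limma, although 2 were higher and 2 lower unadjusted.

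Among 8 NKG2D ligands, which mark stressed cells for natural killer cells, ULBP1 was the one called, at 7.68 in -R48h against 5.71 in -R0h and 6.55 in -R against 4.80 in +R. The 1 call is 12.5% of the list, against 3.2% of all genes, and another 4 ligands had identical values in -R and +R. Of 13 genes of the cGAS-STING pathway, 3 were called lower (23.1%, against 3.74% of all genes) and none higher. Unadjusted, 4 were lower and 2 higher. ENPP1, which degrades the messenger cGAMP, read 6.07 against 7.94 and 6.37 against 8.46, SLC19A1, which imports it, 8.81 against 10.32 and 8.71 against 11.11, and SAMHD1 fell by 0.83 and 0.98. Of 37 interferon-stimulated genes, ISG20 was called higher, by 1.28 and 2.53, and USP18 and DTX3L lower, by means of 1.43 ± 0.19 and 0.90 ± 0.18 on the log2 scale. These shares were 2.70% and 5.41%, against 3.2% and 3.74% of all genes, the list's median level was 4.02 to 4.38 on the 4 arrays, and 6 members had identical values in -R and +R. None of 21 NF-kB targets and cytokines was called, although 1 was higher and 0 lower unadjusted. Of 14 MHC class I genes, B2M, the light chain, was the one called, lower by 1.02 and 1.41 (7.14%, against 3.74% of all genes). The median of these genes was 0.21 in the time course and -0.12 in the DMKG experiment. Of 20 NRF2 targets, GCLM, SLC7A11, NQO1 and TXNRD1 were called higher (20%) and PGD lower (5%), against 3.2% and 3.74% of all genes. GCLM, the modifier subunit of an enzyme of glutathione synthesis, rose by 1.01 and 0.92.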
